A study of Mus musculus with 6 samples.

Results

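Pyruvate entry into mitochondria and the TCA cycle are described here through 34 genes of the 52550 in the gene table, in splenic T cells of wild-type mice. The genes were listed by name for their role in the pathway, and no measured value enters the rule, although earlier results of these data were known when the list was made. They encode the pyruvate carrier and the pyruvate dehydrogenase complex, the enzymes of the cycle, complex II with its assembly factors, the enzymes that feed or drain the cycle, and carriers of its acids. CD3+ T cells were isolated magnetically from spleens of C57BL mice, and RNA was taken 24 h after anti-CD3 and anti-CD28 antibodies had engaged the T cell receptor (TCR). The study as a whole used young adult mice of both sexes, and the legend of this experiment gives neither sex nor age. In 3 samples the cells were activated without an added compound (TCR alone), and in the other 3 samples DMGV was present at 100 ng/ml (TCR+DMGV). All 6 samples thus shared the activation, and no unstimulated cells entered the comparison. DMGV is dimethylguanidino valeric acid. The labels use that name, whereas the legend of the study calls the compound added in this experiment LNY1, a factor purified from fibroblast-conditioned medium that the study identified as asymmetric and symmetric dimethylarginine (ADMA and SDMA). DMGV is a metabolite of these and not the same compound, so the names disagree on the agent, and the groups are called here after the labels. The legend calls the samples independent biological samples.

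Pyruvate made in glycolysis crosses the inner mitochondrial membrane through a carrier of paired subunits and is turned into acetyl-CoA by pyruvate dehydrogenase, a complex that is switched off by phosphorylation. The cycle then oxidizes the acetyl group and passes electrons to the respiratory chain, directly so at complex II, which is an enzyme of the cycle and of the chain at once. T cells that prepare to divide also draw on it for synthesis, as citrate leaves for lipids and oxaloacetate for aspartate.

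The 6 libraries held 37758725 to 43718867 counts, and expression is given as CPM, the counts of a gene scaled to the effective size of its library. The 12 T cell markers summed to between 3732 and 4100 CPM in TCR alone and between 3944 and 4292 CPM in TCR+DMGV, and all 12 passed the filter on low counts. The 6 activation markers summed to 2187 to 2284 CPM and 2211 to 2236 CPM. B cell markers stayed between 8.70 and 11.2 CPM, myeloid markers between 8.51 and 11.9 CPM, and the 4 neutrophil markers were at 0 in every library. NK cell markers summed to 54.6 to 66.1 CPM in TCR alone and 60.7 to 76.0 CPM in TCR+DMGV. Erythroid markers were faint and lower in TCR+DMGV (2.455 to 3.363 CPM in TCR alone, 1.767 to 2.447 CPM in TCR+DMGV), with 3 of 5 past the filter on low counts. Platelet markers were fainter and higher in TCR+DMGV (0.847 to 1.14 CPM beside 1.22 to 1.28 CPM), with 1 of 4 past the filter. Unlike the other CPM given here, the marker sums are scaled to the total counts of each library and not to its effective size. On that scale neither the erythroid nor the platelet list overlapped between the groups in its sum. The erythroid gap was narrow, from 2.447 to 2.455 CPM. The part of these cells in the results below was not tested. TCR alone 3 and TCR+DMGV 1 stood apart from the other libraries on the first principal component of all genes, which held 32.2% of the variance. The counts of all 37 genes of the mitochondrial genome were 0, and the 34 genes described all lie on nuclear chromosomes.

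All 34 genes were expressed above the filter on low counts, and none passed the threshold of 0.05 on the adjusted p (edgeR's quasi-likelihood test with Benjamini-Hochberg adjustment over 14786 genes). Their adjusted p was 0.999 throughout. Across all tested genes, 2 passed, or 0.0135%. The median log2 fold change of the 34 genes was 0.0097, beside 0.0024 for all genes tested, with 18 values above 0 and 16 below. The fold changes ran from -0.55 for Idh1 to 0.16 for Mdh1, and 27 of the 34 lay within 0.1 of 0 on the log2 scale. The median standard error was 0.088 on the log2 scale, against 0.168 over all genes, and the 95% interval lay within 0.3 of 0 for 23 genes and within 0.5 for 30. A change of the whole pathway by a factor of 2 was therefore outside the interval of every gene, while changes of a few percent were not detectable with 3 samples a group. CPM is a share of the library, so an equal change of all RNA in the cell would leave no trace in it, and in such bulk samples fewer expressing cells and less RNA per cell cannot be told apart.

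**Figure D1:**
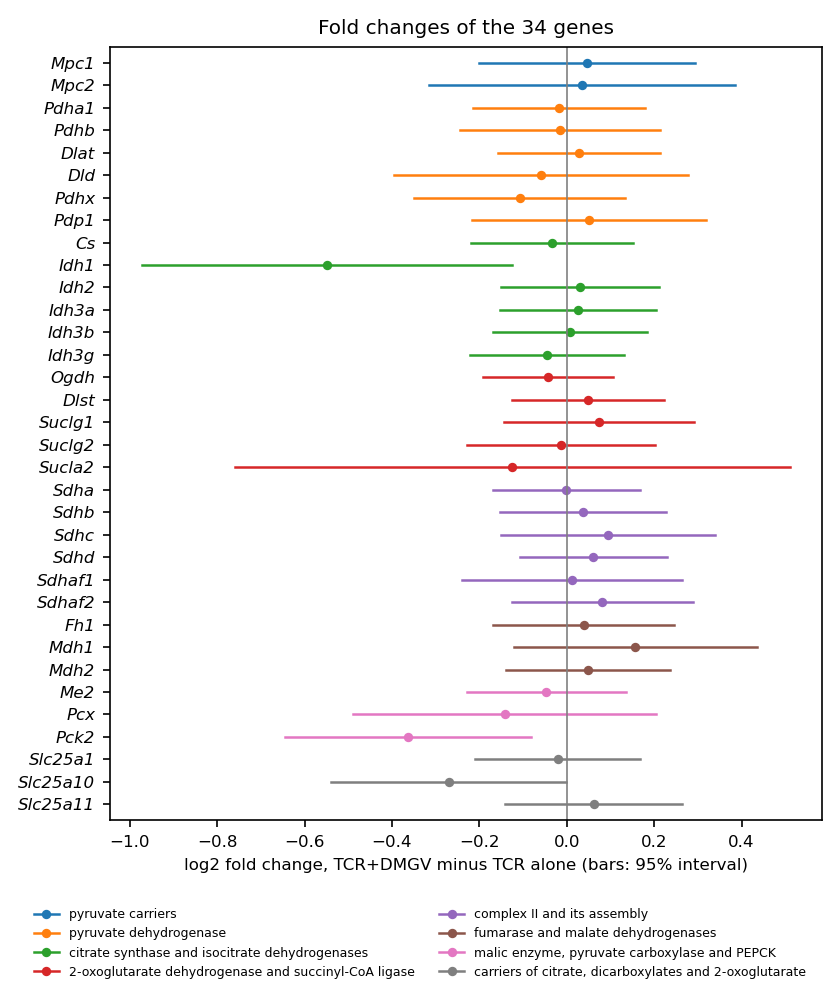
Log2 fold change (TCR+DMGV minus TCR alone, horizontal axis) of each of the 34 genes, in order of role, as a point with its 95% interval as a bar and coloured by role. Most points lie within 0.1 of 0, and the intervals of Idh1, Pck2 and Slc25a10 lie below 0.

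At an unadjusted p under 0.05 there were 3 of the 34 genes, 8.82%, where 3.19% of all tested genes reached it. All 3 were lower in TCR+DMGV (1.56% of all genes were lower at that level), and they were Idh1, Pck2 and Slc25a10. The same 3 genes were those whose groups did not overlap. That share, 8.82%, stood beside 8.86% of all genes, and beside 3.94% for genes that were lower without overlap. None of the 3 differences held after adjustment, and they are given as values.

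The sequence before the start of these 3 genes is shown first, since they are the members whose groups separated. Each is the 250 bases upstream of the start in RefSeq (GRCm38.p6), 5′ to 3′ on the gene's strand, with capitals on bases that match one of 7 motifs searched on both strands. The window of Pck2 is chr14:55540016-55540265 on the plus strand, that of Idh1 is chr1:65186480-65186729 on the minus strand, upstream of the outermost of its 2 RefSeq starts, and that of Slc25a10 is chr11:120491587-120491836 on the plus strand.
Pck2: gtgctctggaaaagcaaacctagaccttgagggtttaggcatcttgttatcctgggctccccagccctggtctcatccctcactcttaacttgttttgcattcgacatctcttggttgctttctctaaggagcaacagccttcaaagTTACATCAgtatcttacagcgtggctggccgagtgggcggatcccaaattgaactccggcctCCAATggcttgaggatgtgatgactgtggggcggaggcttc
Idh1: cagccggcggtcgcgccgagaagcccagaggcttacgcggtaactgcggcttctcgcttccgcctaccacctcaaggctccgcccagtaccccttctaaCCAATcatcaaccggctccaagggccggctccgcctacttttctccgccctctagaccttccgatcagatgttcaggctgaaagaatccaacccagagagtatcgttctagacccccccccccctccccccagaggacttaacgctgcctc
Slc25a10: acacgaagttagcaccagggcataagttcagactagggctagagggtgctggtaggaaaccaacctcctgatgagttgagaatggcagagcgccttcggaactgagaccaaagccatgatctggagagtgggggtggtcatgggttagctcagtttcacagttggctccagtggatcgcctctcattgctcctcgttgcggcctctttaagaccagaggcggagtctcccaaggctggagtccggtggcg
Pck2 held both a CCAAT box and a match to TGATGNAA, which is read on the opposite strand of the run printed as TTACATCA. The latter are the letters of an amino acid response element, bound by ATF4 and its partners, and 3.45% of the 32851 RefSeq windows of this length held them. Idh1 held a CCAAT box alone, and Slc25a10 held none of the 7 motifs. Bases just after the start used for Idh1 did not occur in its main transcript, the one with most of its counts. For Pck2 and Slc25a10 they did.

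Among the 30 genes of the set that had a window, CCAAT occurred in 19, or 63.3%, beside 33.8% of all windows. The ETS letters CCGGAAG occurred in 4 (13.3% beside 6.91%), in Mpc1, Idh3g, Sdhd and Sdhaf2. The E-box CACGTG occurred in 2 (6.67% beside 6.02%), in Pcx and Slc25a1. TGATGNAA was found in Pck2 only (3.33% beside 3.45%). The remaining motifs had no match in the 30 windows, namely the NRF1 letters CGCATGCG (1.55% of all windows), the ERR letters TCAAGGTCA (0.387%) and the SREBP letters TCACNCCAC (1.05%). As for Idh1, the bases just after the start used for Ogdh, Suclg2, Sdhd and Sdhaf2 did not occur in the main transcript. These are matches of letters and no measure of binding.

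Idh1 encodes the cytosolic and peroxisomal isocitrate dehydrogenase, which makes NADPH from isocitrate. The gene (ENSMUSG00000025950.16, chr1:65158616-65186500, minus strand, GRCm38) had 5.29, 3.97 and 4.35 CPM in TCR alone and 3.08, 3.00 and 3.23 CPM in TCR+DMGV. The 3 treated samples were all below the 3 others and lay close to each other. The log2 fold change was -0.55 ± 0.18 (SE, n = 3 per group), with an edgeR unadjusted p of 0.018 and an adjusted p of 0.999. The gene had the lowest CPM of the 34. The untreated libraries held 162 to 201 of its counts and the treated ones 128 to 137.

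Pck2 encodes the mitochondrial phosphoenolpyruvate carboxykinase, which takes oxaloacetate out of the cycle. The gene (ENSMUSG00000040618.6, chr14:55540266-55551242, plus strand) had 30.1, 25.5 and 24.5 CPM in TCR alone and 18.8, 22.1 and 21.3 CPM in TCR+DMGV. TCR alone 1 was the highest sample and TCR+DMGV 1 the lowest, and the groups did not overlap. The log2 fold change was -0.36 ± 0.12 (SE), with an edgeR unadjusted p of 0.018 and an adjusted p of 0.999. An annotated antisense gene, Gm10876, covers its first bases, and use of the strand in counting is not given in the sources used here.

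Slc25a10 encodes the dicarboxylate carrier, which exchanges malate or succinate for phosphate. The gene (ENSMUSG00000025792.9, chr11:120491840-120499187, plus strand) had 23.3, 27.3 and 23.5 CPM in TCR alone and 19.9, 22.5 and 19.1 CPM in TCR+DMGV. The gap between the groups was narrow, from 22.5 to 23.3 CPM. The log2 fold change was -0.27 ± 0.11 (SE), with an edgeR unadjusted p of 0.049 and an adjusted p of 0.999. Its antisense neighbour Gm11788 had 0 to 39 counts.

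**Figure D2:**
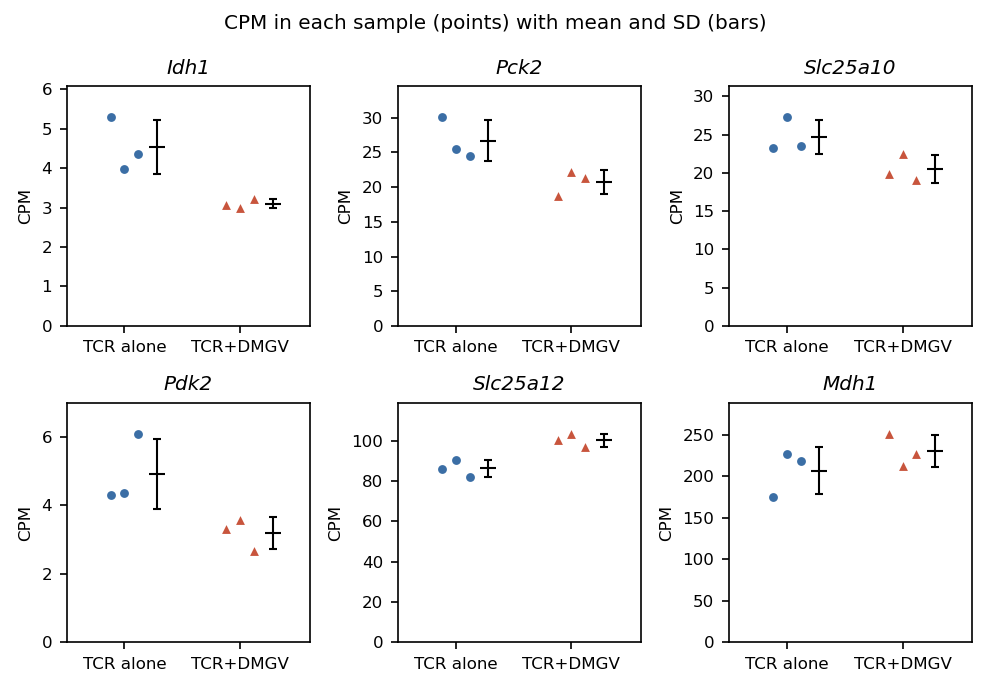
CPM (vertical axes, from 0) in each of the 3 TCR alone samples (circles) and the 3 TCR+DMGV samples (triangles), with mean and SD beside them, for Idh1, Pck2, Slc25a10, Pdk2, Slc25a12 and Mdh1. The groups do not overlap for the first 5 genes, and they overlap for Mdh1.

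In CPM no other gene of the set separated the groups, and they are described below by role. Levels are compared between genes as FPKM (fragments scaled to length and library size) summed over the transcripts of a gene. The gene FPKM are divided by the length of all annotated exons together, which lowers genes with retained-intron transcripts such as Mpc2 (gene FPKM 2.92, summed transcript FPKM 18.2, medians of 6 samples) and Dlst (9.21 and 42.1).

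On that scale the levels spanned a factor of 155. Mdh2 had the highest median over the 6 samples at 246 FPKM, followed by Cs with 128, Sdhd with 109, Sdha with 109 and Suclg1 with 102 FPKM. At the other end stood Pck2 with 6.12, Pdp1 with 3.70, Pcx with 1.65 and Idh1 with 1.59 FPKM. There were 16 genes above 50 FPKM and 9 under 20 FPKM. Of the 33 pairs of neighbours in this order, 25 overlapped in their ranges over the 6 samples. The 8 pairs that did not were Mdh2 and Cs, Cs and Sdhd, Slc25a11 and Mpc1, Idh2 and Sdhc, Dlat and Mpc2, Pdhx and Pck2, Pck2 and Pdp1, and Pdp1 and Pcx. Idh3g (84.1, 85.8 and 92.6 FPKM in TCR alone, 83.6, 83.1 and 80.7 FPKM in TCR+DMGV) and Slc25a11 (37.3, 37.7 and 40.9 beside 42.1, 42.9 and 42.2 FPKM) did not overlap between the groups on this scale, though they did in CPM. That made 5 of the 34 genes without overlap, beside 8.2% of all genes on the same scale.

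**Figure D3:**
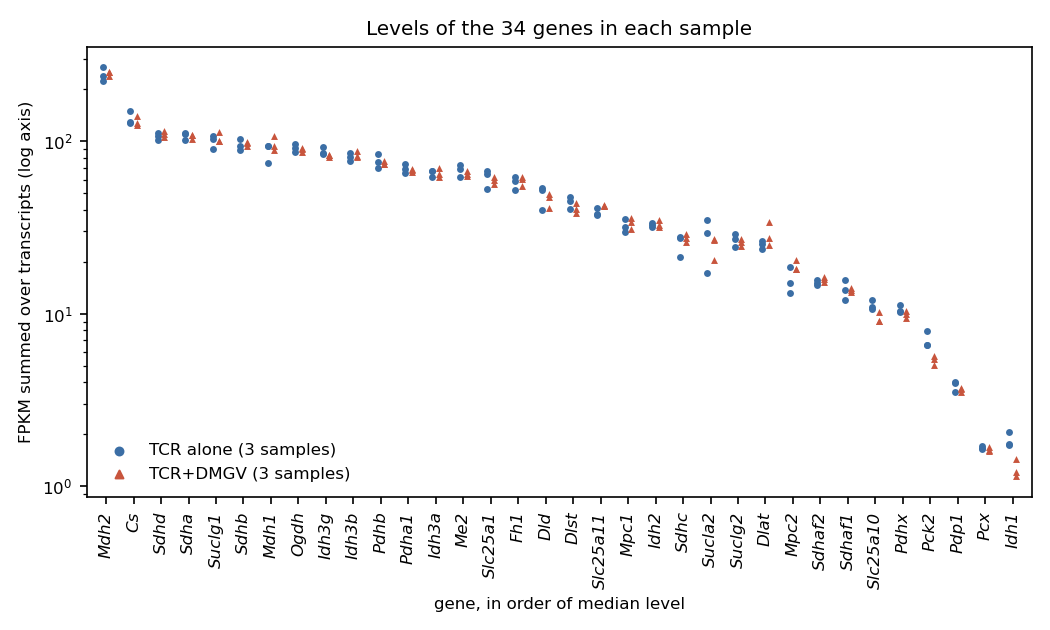
FPKM summed over transcripts (vertical axis, log scale) of the 34 genes in order of their median, with the 3 TCR alone samples as circles and the 3 TCR+DMGV samples as triangles. Levels run from 246 FPKM for Mdh2 to 1.59 FPKM for Idh1, and on this scale the groups do not overlap for 5 genes, Idh1, Pck2, Slc25a10, Idh3g and Slc25a11.

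The pyruvate carrier is made of Mpc1 and Mpc2, which work only together. Mpc1 had 30.5, 33.5 and 36.8 CPM in TCR alone and 36.4, 32.4 and 35.2 CPM in TCR+DMGV (log2 fold change 0.05 ± 0.11, SE). Mpc2 had 18.4, 24.9 and 27.0 CPM beside 24.3, 23.3 and 24.4 CPM (0.03 ± 0.15). For both genes TCR alone 1 was the lowest of the 6 samples, and the treated samples lay inside the range of the untreated ones. The log2 ratio of Mpc1 to Mpc2 (gene FPKM) was 2.35 ± 0.17 (SD, n = 3) in TCR alone and 2.35 ± 0.054 in TCR+DMGV (two-sided exact permutation test, p = 1). The size of that ratio depends on the scale, since with summed transcript FPKM Mpc1 was 1.69 to 2.69 times as high as Mpc2 over the 6 samples, the highest ratio being that of TCR alone 3.

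In the pyruvate dehydrogenase complex, Pdha1 and Pdhb form the part that removes carbon dioxide, Dlat carries the acetyl group, Dld reoxidizes the lipoyl arm and Pdhx holds Dld in place, while Pdp1 is the phosphatase that switches the complex on. All 6 log2 fold changes lay between -0.11 (Pdhx) and 0.05 (Pdp1). Pdha1, the subunit that is phosphorylated, had 216, 240 and 202 CPM in TCR alone and 211, 215 and 223 CPM in TCR+DMGV, and the treated samples again lay inside the range of the untreated ones. Its count may hold reads of Map3k15 (1036 to 1443 counts), which overlaps it on the opposite strand. Pdp1 had 15.1, 15.7 and 14.3 CPM beside 14.1, 16.0 and 16.7 CPM. The subunits differed in level, with medians of 74.7 FPKM for Pdhb, 68.5 for Pdha1, 48.7 for Dld, 25.8 for Dlat and 10.3 for Pdhx.

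Dld also serves the 2-oxoglutarate dehydrogenase complex. It had 151, 150 and 111 CPM in TCR alone and 115, 143 and 137 CPM in TCR+DMGV. The low values were those of TCR alone 3 and TCR+DMGV 1, the libraries that stood apart over all genes, and the same held for Sucla2 below. Their mean log2 CPM was 0.36 lower for Dld and 0.70 lower for Sucla2 than that of the remaining 4 libraries. The main transcripts of both genes have a low GC content, 40.6% and 43.2%. Its part in this spread was not tested.

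Citrate synthase and the isocitrate dehydrogenases begin the cycle. Cs, which joins acetyl-CoA to oxaloacetate, had 420, 429 and 480 CPM in TCR alone and 452, 426 and 420 CPM in TCR+DMGV (log2 fold change -0.03 ± 0.08, SE). The NAD-linked enzyme of the cycle is built from Idh3a, Idh3b and Idh3g, whose medians were 66.2, 81.8 and 83.8 FPKM and whose log2 fold changes were 0.03, 0.01 and -0.04. Idh2, the mitochondrial NADP-linked form, was among the steadiest genes, with 60.5, 62.1 and 62.6 CPM in TCR alone and 61.1, 65.6 and 62.5 CPM in TCR+DMGV.

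Idh2 and Idh1 do the same reaction in mitochondria and in the cytosol. The log2 ratio of Idh2 to Idh1 (gene FPKM) was 3.62, 4.08 and 3.95 in TCR alone and 4.41, 4.55 and 4.38 in TCR+DMGV. The groups did not overlap, at 3.88 ± 0.24 (SD, n = 3) and 4.45 ± 0.093, a difference of 0.57. The log2 fold change was 0.03 for Idh2 and -0.55 for Idh1, so the ratio restates the difference of Idh1 and is no separate result. The two-sided exact permutation test gave p = 0.1, the smallest that 3 against 3 samples allow, and 0.4 after Benjamini-Hochberg adjustment over the 4 ratios computed.

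The 2-oxoglutarate dehydrogenase complex joins Ogdh, Dlst and Dld. Ogdh, its dehydrogenase, varied least of the 34 genes, with 391, 390 and 405 CPM in TCR alone and 381, 394 and 376 CPM in TCR+DMGV, a factor of 1.08 between its highest and lowest sample. Its log2 fold change was -0.04 ± 0.06 (SE). Dlst, the succinyl carrier, had 91.2, 100.4 and 98.4 CPM beside 97.7, 101.4 and 100.6 CPM (0.05 ± 0.07).

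Ogdh transcripts choose between a pair of neighbouring coding exons in the same place, the fourth of the transcript. Alternative splicing there is known to set how the enzyme responds to calcium, a signal of T cell activation. The exons are shown because the gene's total count hides the choice. They lie at chr11:6316765-6316855 (91 bases) and chr11:6316978-6317080 (103 bases) on the plus strand of GRCm38. Capitals mark the longest run the exons share, 7 bases.
Ogdh exon of 91 bases: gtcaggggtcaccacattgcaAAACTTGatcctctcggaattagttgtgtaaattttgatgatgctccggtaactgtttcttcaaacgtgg
Ogdh exon of 103 bases: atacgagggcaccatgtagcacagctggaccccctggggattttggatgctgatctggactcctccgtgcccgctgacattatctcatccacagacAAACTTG
Transcripts with the exon of 91 bases held 36.3, 46.6 and 47.9% of the Ogdh counts in TCR alone, beside 48.8, 51.5 and 36.8% in TCR+DMGV. Transcripts with the exon of 103 bases held 62.4, 52.3 and 50.5% beside 49.4, 46.9 and 61.4%. Both forms were thus present in every sample. The longer exon had the larger share in every sample except TCR+DMGV 2. Its lead was widest in TCR alone 1 and TCR+DMGV 3, and the shares lay closer together in the other 4 samples. The means were 43.6 ± 6.40% (SD, n = 3) and 45.7 ± 7.83% for the exon of 91 bases (two-sided exact permutation test, p = 0.5). These shares come from the authors' estimates for whole transcripts, so reads outside the exons also shaped them.

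Succinyl-CoA ligase pairs Suclg1 with Suclg2 in the GTP-making form or with Sucla2 in the ATP-making form. The shared subunit Suclg1 had the highest median of the 3, 102 FPKM, while Sucla2 had 26.9 and Suclg2 26.6 FPKM. Sucla2 varied most of the 34 genes, by a factor of 2.15 between samples. It had 72.6, 89.2 and 41.5 CPM in TCR alone and 50.3, 67.8 and 68.4 CPM in TCR+DMGV, so that the groups overlapped and the interval of its log2 fold change (-0.13) reached from -0.76 to 0.51. The estimate was -0.25 without TCR alone 3 and TCR+DMGV 1. With each sample left out in turn it ran from -0.38 to 0.12, and the value above 0, at 0.12, was that without TCR alone 2. The log2 ratio of Suclg2 to Sucla2 (gene FPKM) was 1.01 in TCR alone 3 and 0.78 in TCR+DMGV 1 but 0.082 to 0.36 in the remaining 4 libraries. On the summed transcript FPKM the linear ratio was 1.58 and 1.32 in those libraries and 0.825 to 0.984 in the remaining 4, so which of the subunits was higher there depends on the scale. The group means of the log2 ratio of gene FPKM were 0.40 ± 0.53 (SD, n = 3) and 0.46 ± 0.28 (exact permutation test, p = 0.8).

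Complex II holds Sdha, Sdhb, Sdhc and Sdhd in equal number. Their medians were 109, 95.8, 27.5 and 109 FPKM, so that Sdhc, a membrane anchor, was the lowest. Sdhd, the other anchor, had 139, 151 and 151 CPM in TCR alone and 155, 150 and 156 CPM in TCR+DMGV (log2 fold change 0.06 ± 0.07, SE). Sdha, the flavoprotein that oxidizes succinate, had a log2 fold change of -0.0012 ± 0.07, and Sdhb, the iron-sulfur subunit, 0.04 ± 0.08. The assembly factor Sdhaf1 had 37.9, 34.2 and 42.6 CPM beside 37.6, 37.8 and 40.3 CPM. The 95% intervals of 5 of these 6 genes lay within 0.3 of 0, that of Sdhc reaching 0.34. Sdhaf1 overlaps E130208F15Rik on the opposite strand (1130 to 1480 counts).

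Fumarase (Fh1) and the malate dehydrogenases close the cycle. Fh1 had 152, 175 and 179 CPM in TCR alone and 173, 182 and 165 CPM in TCR+DMGV (log2 fold change 0.04 ± 0.09, SE). Mdh2, the mitochondrial enzyme, had 349, 384 and 411 CPM beside 393, 386 and 404 CPM (0.05 ± 0.08). Mdh1, its cytosolic partner in the malate-aspartate shuttle, had the highest fold change of the 34 genes. Its values were 175, 227 and 218 CPM in TCR alone and 251, 212 and 227 CPM in TCR+DMGV, with a log2 fold change of 0.16 ± 0.12 (SE) and an edgeR unadjusted p of 0.226. The groups overlapped, and the estimate fell to 0.03 without TCR alone 1, the lowest sample. The log2 ratio of Mdh2 to Mdh1 (gene FPKM) was 0.42 ± 0.12 (SD, n = 3) in TCR alone and 0.31 ± 0.12 in TCR+DMGV (exact permutation test, p = 0.4). The size of that ratio depends on the scale. Over the 6 samples Mdh2 was 1.13 to 1.44 times as high as Mdh1 on gene FPKM. On summed transcript FPKM it was 2.35 to 2.99 times as high.

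**Figure D4:**
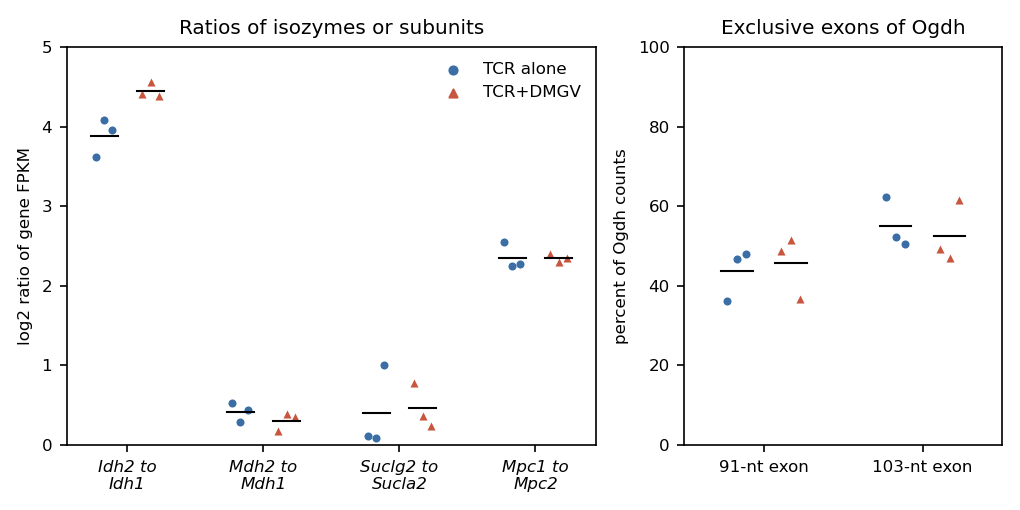
Left, log2 ratio of gene FPKM for 4 pairs of genes. Right, percent of Ogdh counts on transcripts with either exclusive exon. Circles are the 3 TCR alone samples, triangles the 3 TCR+DMGV samples and lines the means. The groups are apart only for Idh2 to Idh1, at 3.88 and 4.45, which restates the difference of Idh1.

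Of the enzymes that fill and empty the cycle, Me2, the NAD-linked malic enzyme of mitochondria, was high, at 66.1 FPKM. It had 171, 193 and 195 CPM in TCR alone and 182, 182 and 178 CPM in TCR+DMGV. Pcx, the pyruvate carboxylase that makes oxaloacetate, was near the bottom, at 1.65 FPKM, with 7.92, 7.94 and 7.30 CPM beside 7.32, 6.01 and 7.65 CPM (log2 fold change -0.14 ± 0.15, SE). With Pck2 this made 3 of 3 estimates below 0, of which Pck2 alone had an interval below 0. Among the carriers, Slc25a1, which exports citrate for lipid synthesis, had 97.9, 92.7 and 107 CPM beside 97.1, 98.6 and 98.0 CPM (-0.02 ± 0.08). Slc25a11, which exchanges 2-oxoglutarate for malate, had a log2 fold change of 0.06 ± 0.09.

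Taken over the 34 genes, the untreated samples differed more among themselves than the groups did. The median deviation of the genes from their 6-sample mean log2 CPM was -0.088 in TCR alone 1, 0.045 in TCR alone 2 and 0.042 in TCR alone 3. In TCR+DMGV 1, 2 and 3 it was -0.010, -0.0023 and 0.024. TCR alone 1 held the lowest value of 20 of the 34 genes, and the treated samples lay closer together. The median fold change over the genes therefore turned on that library. Without it the median was -0.046, and without each other sample in turn it lay between 0.0024 and 0.045.

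**Figure D5:**
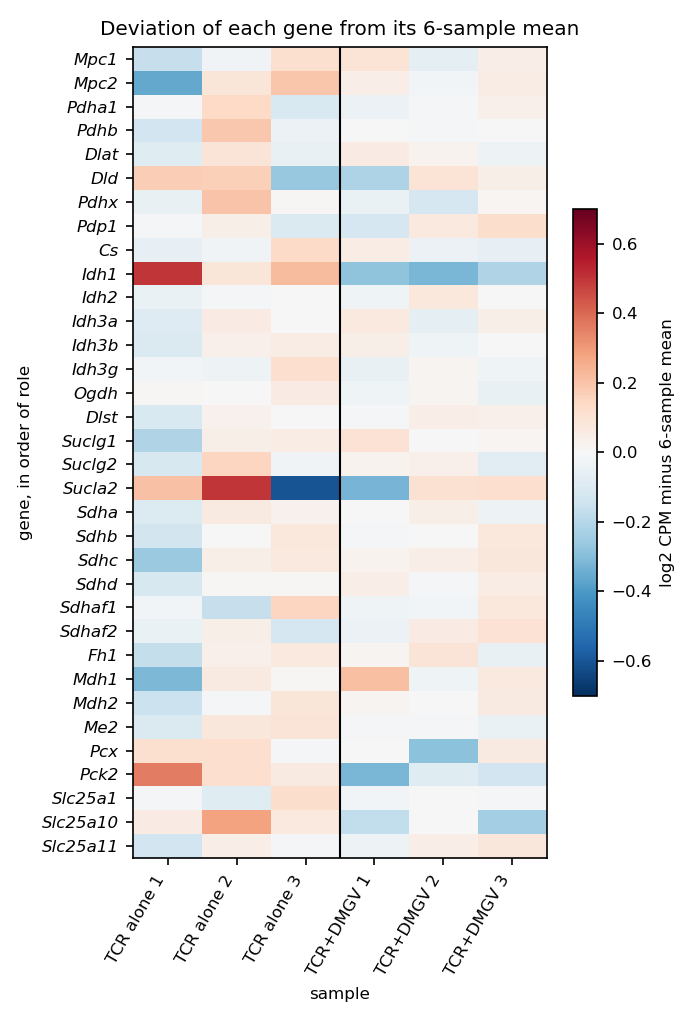
Log2 CPM minus the mean of the 6 samples (colour) for each of the 34 genes (rows, in order of role) in each sample (columns, with a line between the groups). TCR alone 1 is the lowest sample for 20 genes, while Idh1, Pck2 and Slc25a10 are above their mean in all 3 TCR alone samples.

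The transcripts were tested in the same way. Of 173 annotated transcripts of the 34 genes, 105 were tested, and none passed the threshold on the adjusted p (edgeR, 38256 transcripts, of which 0.0% passed). At an unadjusted p under 0.05 there were 5, where 3.21% of all transcripts reached it, and none of the 5 was the main transcript of its gene. For 26 genes the main transcript held at least 80% of the counts in every sample, among them Slc25a10 and Pck2, which has a single transcript. The coding transcript ENSMUST00000108302.7 of Pdp1 was counted at 74, 103 and 69 in TCR alone, beside 20, 3 and 22 in TCR+DMGV. The transcript ENSMUST00000184538.1 of Idh3b, annotated as a target of nonsense-mediated decay, had 73, 73 and 68 counts beside 161, 197 and 123, which was 1.1 to 3.3% of that gene's counts. The 3 others were retained-intron transcripts of Mpc2, Slc25a1 and Slc25a11.

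Some estimated shares swung widely within a group. The coding transcript ENSMUST00000053811.9 of Dlst held 50.5, 6.8 and 5.2% of the gene's counts in TCR alone, beside 89.7, 27.3 and 91.1% in TCR+DMGV, although the gene's total barely moved. The main transcript of Pcx held 100% in 3 libraries and 95.4% in TCR+DMGV 2, but 12.3% in TCR alone 3 and 3.1% in TCR+DMGV 1, where another coding transcript took 70.2 and 96.6%. A retained-intron transcript took 48.1% of the Mpc2 counts in TCR alone 3 and at most 8.6% in the other libraries.

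A wider list of 38 further genes of the pathway covered kinases and phosphatases of pyruvate dehydrogenase, lipoate supply, shuttles, lactate and 2-hydroxyglutarate. Of these, 33 were tested, none passed the threshold, and 2 had an unadjusted p under 0.05, 1 in each direction (6.06%, beside 3.19% of all genes). The groups did not overlap for 3, or 9.09%, which was close to the 8.86% of all genes. Pdk4, Dhtkd1, Me1, Me3 and Pck1 did not pass the filter on low counts. The median log2 fold change of the 33 was -0.06.

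Pdk2, a kinase that switches pyruvate dehydrogenase off, had 4.29, 4.36 and 6.09 CPM in TCR alone and 3.30, 3.58 and 2.67 CPM in TCR+DMGV. The groups did not overlap, and the log2 fold change was -0.62 ± 0.22 (SE, edgeR unadjusted p 0.022, adjusted p 0.999). The kinases Pdk1 and Pdk3 had medians of 29.2 and 27.2 summed transcript FPKM over the 6 samples, against 1.62 for Pdk2. Their log2 fold changes were -0.08 ± 0.09 and -0.12 ± 0.17. Slc25a12, an aspartate-glutamate carrier of the malate-aspartate shuttle, had 86.1, 90.3 and 82.1 CPM beside 100.2, 103.4 and 96.7 CPM, with every treated sample above every untreated one (0.22 ± 0.08, edgeR unadjusted p 0.025, adjusted p 0.999). Slc25a13, the other carrier of that kind, had 41.0, 49.3 and 40.0 CPM beside 39.5, 38.0 and 38.8 CPM (-0.16 ± 0.11). Whether these carriers differed from each other in their change was not tested.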

How the data were processed

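RNA-seq of 3 TCR alone and 3 TCR+DMGV samples was analysed, with groups taken from the sample labels. Read filtering by the authors used SOAPnuke, mapping used HISAT2 2.0.4, and StringTie estimated expression. They deposited whole-number counts and FPKM values per gene and per transcript. The step from StringTie's coverage to counts is not given in the sources used here. The submitters' processing notes list the build mm9, whereas 99.7% of the gene identifiers, without version, matched GENCODE M21 (GRCm38), from which symbols and coordinates were taken. The gene counts equalled the summed transcript counts for all 34 genes in every sample.

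The counts were tested with edgeR 4.0.16 (R 4.3.3; TMM, default filter on low counts, quasi-likelihood test, two-sided, Benjamini-Hochberg adjustment over all genes or transcripts tested, threshold 0.05) without covariates. CPM are TMM-scaled. Groups were said not to overlap where the 3 values of one all lay above or below those of the other. Ratios and exon shares were compared with exact permutation tests. Levels between genes were compared as summed transcript FPKM, a choice made after the data were seen. Genes named with their value in every sample were those at an unadjusted p under 0.05 or without overlap and, in each role, those of highest and lowest mean gene FPKM. Dld, Idh2, Idh3g, Slc25a11, Mdh1, Sucla2 and the transcripts that are not main transcripts were added after their values were seen. The 34 genes and all lists were chosen with earlier results of these data known. The fits were tested on simulated counts. Alternatives were DESeq2 1.42.0, RLE size factors, no filter, limma 3.58.1 on log2(FPKM + 1) or log2(FPKM + 0.1), a replicate block, the libraries that stood apart left out or given a term, and each sample left out. Sequences were copied from RefSeq windows (GRCm38.p6; 30 of the 34 genes matched) and from the GRCm38 genome. Tables and figures were made with Python 3.11.15, pandas 2.3.3, scipy 1.17.1 and matplotlib 3.10.9.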

Additional observations from a re-analysis of the deposited data

How the results depend on the processing

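None of the 34 genes or of the other pathway genes passed the threshold under any alternative run. Transcripts were rerun only with RLE size factors, no filter, the replicate block and samples left out. None of the 34 genes had a transcript past the threshold there. Over the alternatives run on genes, the log2 fold change of Idh1 ranged from -0.64 to -0.30. The value of -0.30 came from log2(FPKM + 1), and the other alternatives lay between -0.64 and -0.44. The range was -0.42 to -0.29 for Pck2 and -0.34 to -0.20 for Slc25a10. The smallest adjusted p was 0.649 (edgeR, without TCR alone 3). DESeq2 called 12 of all genes, none of them among the 34. It had Idh1 and Pck2 at an unadjusted p under 0.05, beside 424 of the 14786 genes tested. The number of the 34 genes at that level was 1 (Pck2) with TCR alone 3 and TCR+DMGV 1 left out, beside 972 of 14888 genes. With each sample left out in turn it was 1 to 2. The count over all genes then ran from 368 of 15223 (without TCR+DMGV 3) to 1109 of 15191 (without TCR alone 3). Without TCR+DMGV 1 the number was 1 (Idh1), beside 393 of 15143 genes. With the replicate number as a block it was 2, Idh1 and Slc25a10, beside 340 of 14786 genes. Samples of the same number did not deviate together (correlations across genes of -0.154, 0.121 and -0.148), so the numbers were not taken as pairs, and the block moved no call past the threshold. The number of genes whose groups did not overlap was 14 with 2 against 2 samples and 3 to 7 with 1 sample left out, beside 38.7% and 15.9 to 28.4% of all genes, since smaller groups overlap less often. With summed transcript FPKM in place of CPM, also added after the data were seen, it was 5. The median log2 fold change lay between -0.046 (without TCR alone 1) and 0.045 (without TCR alone 2), and between -0.0031 and 0.020 under the other alternatives. The difference in the log2 ratio of Mpc1 to Mpc2 was -0.23 with summed transcript FPKM, an alternative added after the data were seen, beside -0.0052 with gene FPKM. On the summed scale Mpc1 was 2.69 times as high as Mpc2 in TCR alone 3 and 1.69 to 1.96 times in the other libraries. The cause was not tested. With 3 samples a group, the exact tests could not go below p = 0.1, and Idh1 rests on 128 to 201 counts per library.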

Other observations

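Among the other genes of the pathway, Slc25a22, a mitochondrial glutamate carrier, had 11.2 CPM in TCR+DMGV 1 and 36.8 to 50.4 CPM in the other 5 libraries, so that its log2 fold change was -0.34 with all samples and 0.08 without TCR+DMGV 1. The libraries TCR alone 3 and TCR+DMGV 1 were both below all 4 others for Sucla2, Dld, Pdp1 and Pdha1, whose main transcripts have 39.2 to 45.5% GC, and both above all 4 others for Mpc1, Suclg1, Cs and Idh3b, with 45.0 to 52.1% GC. Idh1 and Suclg2, with 43.8 and 44.4% GC, did neither. The share of all genes that set these libraries apart in this way was not computed. The genes were chosen after their values were seen, and the part of GC content was not tested.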
